A study of Mus musculus with 4 samples.

Results

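The lysyl oxidase family was examined in mouse mammary gland cells that had been transplanted and sorted. The 5 genes, Lox and Loxl1 to Loxl4, were chosen by symbol. Each was represented on the array by probe sets that the platform annotation ties to that gene alone, and the probe set with the highest mean over the 4 arrays stood for the gene. All 5 of 5 were measured, among 17097 genes in all, through 9 of the 45141 probe sets on the array.

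The 2 groups differed in what was transplanted. BC alone, called multipotent in the labels, was 10000 BC cells, and the control, called unipotent, was 2000 BC cells mixed with 8000 LC cells. The labels leave both abbreviations unexplained, and basal cell and luminal cell are their customary reading in mammary biology. Cells were sorted 3 days later and RNA from 50 of them went onto each array, with 2 arrays a group. The sources used here name no strain, age, recipient or sorting gate. Nothing says that the arrays of a group came from separate animals, so p-values reflect the spread between 2 arrays, possibly a technical one, and so few arrays limit the precision. The presence of LC cells and the number of BC cells cannot be told apart in this design.

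Lysyl oxidases are secreted, copper-dependent enzymes that oxidise lysine side chains in collagen and elastin. The aldehydes they make then join neighbouring chains, and these crosslinks make a matrix stiffer and harder to digest. Lox is made with a propeptide that proteinases of the Bmp1 family remove, Loxl1 is known for its part in elastic fibres, and Loxl2, Loxl3 and Loxl4 carry scavenger receptor cysteine-rich domains in front of the catalytic domain. In the mammary gland the family is best known from tumours, where Lox and Loxl2 have been studied for stiffening the stroma.

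The second control array stood apart from the other 3 arrays, and the members' differences and the medians of gene lists are therefore also given without it. Its values had an SD of 1.44 over all probe sets, against 1.90 to 1.92 elsewhere, and its Pearson correlation with the other arrays was at most 0.919, while the others reached 0.970 to 0.972 with their nearest neighbour (a correlation across probe sets, not across independent samples). Most basal and myoepithelial markers were low there. The sum of the 8 measured markers on a linear scale was 7101 and 5565 on the BC alone arrays, against 7239 on the first control and 573 on the second. Over all genes that sum was 2334507 and 2334528 on the BC alone arrays, against 2282554 on the first control and 1214437 on the second. Krt14, a basal keratin, had a log2 value of 10.23 and 9.80 on the BC alone arrays, against 10.49 on the first control and 6.78 on the second. In such samples fewer cells of a type and less RNA per cell cannot be told apart.

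Lox and Loxl1 were higher on both BC alone arrays than on either control array, by 6.82-fold and 4.29-fold on average, and Loxl2 followed at 2.46-fold with more spread. Loxl3 was low on the second control array only, and Loxl4 had no common direction. None of the 5 passed an adjusted p of 0.05 in limma, nor did any of the 17097 genes (0% of genes called). At an unadjusted p under 0.05 there were 3 of 5 members, all higher in BC alone, beside 3.98% of all genes in either direction and 3.08% higher. The mean was higher in BC alone for 4 of 5 members, beside 47.0% of all genes. The groups did not overlap for 3 of 5 members, all higher in BC alone, where 16.8% of all genes were higher and 19.6% lower without overlap. All 3 also differed at least 2-fold, as did 4.79% of all genes in that direction. The median log2 difference of the 5 members was 1.43, beside -0.04 for all genes. The 10469 genes at or above the median of all probe sets include all 5 members, and their median difference was 0.27. A larger share of these brighter genes than the 16.8% of all genes was higher in BC alone without overlap. Part of the members' excess over all genes is thus shared by brighter genes.

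**Figure D1:**
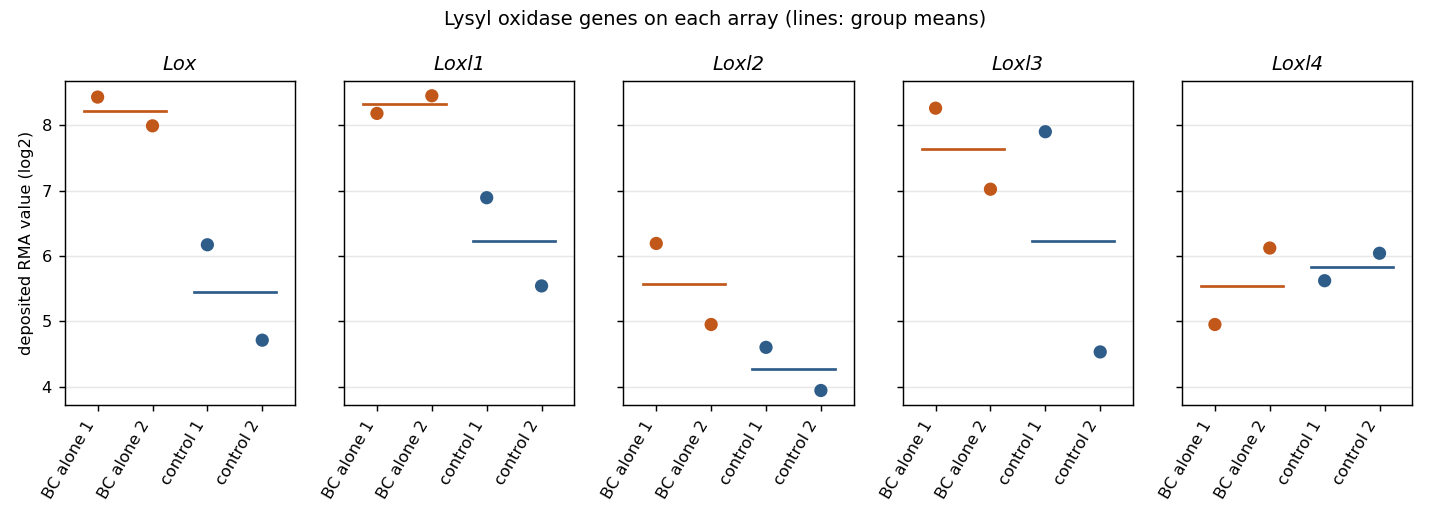
Deposited RMA values (log2, vertical axis) of the brightest probe set of each lysyl oxidase gene on the 2 BC alone arrays and the 2 control arrays. Points are single arrays and lines are group means. Lox and Loxl1 lie near 8 in BC alone and lower on both controls, while Loxl3 is low only on the second control.

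Lox, the enzyme after which the family is named, had log2 values on probe set 1448228_PM_at of 8.43 and 7.99 on the BC alone arrays, against 6.17 and 4.71 on the control arrays. The groups did not overlap, and both BC alone arrays stood well clear of the higher control. The means were 8.21 ± 0.31 in BC alone, the control being at 5.44 ± 1.03 (SD, n = 2). They differed by 2.77 ± 0.54 on the log2 scale (SE of the fit), with a 95% interval of 1.41 to 4.13 and an adjusted p of 0.842 in limma. Only 0.04% of genes had a larger difference, and Lox was the 7th highest of 17097. The 4 differences between single arrays ran from 1.82, for the second BC alone array against the first control, to 3.72, for the first BC alone array against the second control. Against the first control alone the difference of the means was 2.04, or 4.11-fold. When limma's variance was modelled with an intensity trend, Lox passed at an adjusted p of 0.00412, as 1 of 97 genes among 17097.

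Another Lox probe set showed the same order of arrays. Probe set 1416121_PM_at had 7.26 and 7.11 on the BC alone arrays, against 5.73 and 4.09 in the control, a difference of 2.28 ± 0.57 (SE; limma's adjusted p over all probe sets 0.843). The remaining one, 1437903_PM_at, had 2.95 and 2.87 on the BC alone arrays, against 3.01 and 2.79 on the controls. It ranked between the 1.8th and 10.0th percentile of all probe sets on the 4 arrays and differed by 0.01. The mean of all 3 Lox probe sets differed by 1.69.

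On probe set 1451978_PM_at Loxl1 had 8.18 and 8.45 on the BC alone arrays, against 6.89 and 5.54 on the controls. Again no control array reached either BC alone array. The means were 8.32 ± 0.19 in BC alone, the control being at 6.22 ± 0.95 (SD, n = 2), a difference of 2.10 ± 0.51 (SE), with a 95% interval of 0.83 to 3.37 and an adjusted p of 0.842 in limma. The BC alone arrays differed from each other by 0.27, in the opposite order to Lox. The dimmer Loxl1 probe set, 1436063_PM_at, had 4.55 and 5.15 on the BC alone arrays, against 3.05 and 3.25 in the control, a difference of 1.70 ± 0.32 (SE; limma's adjusted p over all probe sets 0.843). Its control values ranked at the 11.4th and 10.4th percentile of all probe sets, and they were not tested against background. On the brightest one the mean difference from the first control alone was 1.43, or 2.69-fold.

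A rank within each array does not depend on how wide an array's values are spread, and it gave the same order. The brightest Lox probe set ranked at the 93.4th and 91.0th percentile of all probe sets on the BC alone arrays, against the 76.4th and 52.3rd on the controls. For Loxl1 the ranks were 92.1 and 93.5 on the BC alone arrays, against 83.3 and 70.5 on the controls.

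Loxl2, which has also been studied for roles inside the cell and in epithelial-mesenchymal transition, had 6.19 and 4.95 on the BC alone arrays, against 4.60 and 3.94 on the controls. The groups did not overlap, but the second BC alone array was only 0.35 above the first control. The means were 5.57 ± 0.88 in BC alone, the control being at 4.27 ± 0.47 (SD, n = 2), a difference of 1.30 ± 0.51 (SE), with a 95% interval of 0.01 to 2.59 and an adjusted p of 0.842 in limma. The BC alone arrays were 1.24 apart, a wider gap than 97.2% of genes had, and without the first BC alone array the difference was 0.68. Its 1 probe set, 1452436_PM_at, was dim in the control, at 4.60 on the first array, above that array's median of 4.38, and 3.94 on the second, below its median of 4.62, and no value was tested against background.

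Loxl3 had 8.26 and 7.02 on the BC alone arrays, against 7.90 and 4.53 on the controls. The groups overlapped, since the first control lay between the BC alone arrays. The means were 7.64 ± 0.88 in BC alone, the control being at 6.22 ± 2.38 (SD, n = 2), a difference of 1.43 ± 1.12 (SE) with a 95% interval of -1.38 to 4.23 and an adjusted p of 0.842 in limma. The control arrays were 3.37 apart, and 99.8% of genes had a smaller excess of the first control over the second. Without the second control the direction turned, to -0.26, and without the first control the difference was 3.11. Loxl3 also had 1 probe set, 1418269_PM_at.

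On probe set 1421153_PM_at Loxl4 had 4.95 and 6.12 on the BC alone arrays, against 5.62 and 6.04 on the controls. The control values lay between those of BC alone, and the difference of -0.30 ± 0.47 (SE) had a 95% interval of -1.48 to 0.89 and an adjusted p of 0.856 in limma. Its other probe set, 1450134_PM_at, had 4.68 and 6.33 on the BC alone arrays, against 5.36 and 4.83 in the control, and differed by 0.41 ± 0.59 (SE; limma's adjusted p over all probe sets 0.852). The 2 probe sets thus pointed in opposite directions, and their mean differed by 0.06. The brighter one differed by 0.29 without the first BC alone array and by -0.09 without the second control. The second BC alone array was the higher of its pair on both.

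**Figure D2:**
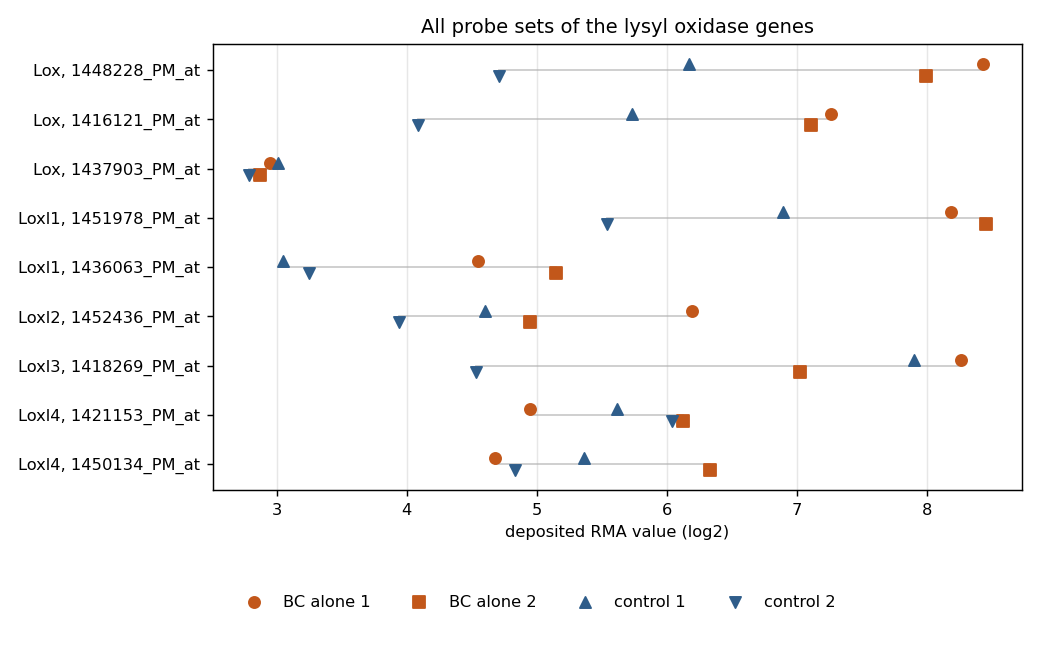
Values of all 9 probe sets of the 5 genes (log2 RMA, horizontal axis), with 1 symbol per array. The pair of brighter Lox probe sets and both Loxl1 probe sets have the BC alone arrays to the right of the controls, the dimmest Lox probe set sits between 2.79 and 3.01 on all arrays, and the Loxl4 probe sets overlap.

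**Figure D3:**
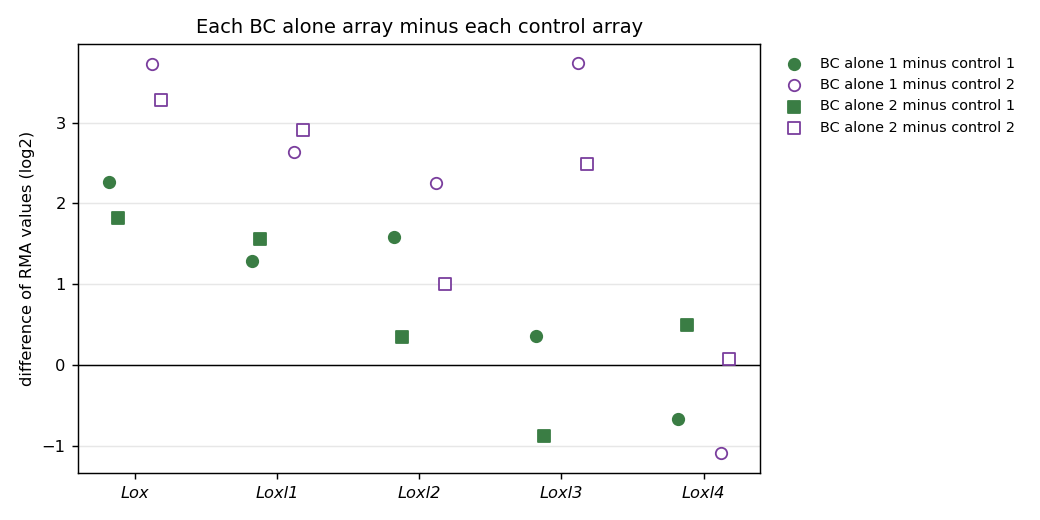
Difference of log2 RMA values for each BC alone array minus each control array, per gene. Filled green symbols use the first control and open purple ones the second. All 4 differences are above 0 for Lox, Loxl1 and Loxl2, while those of Loxl3 run from -0.88 to 3.73 and those of Loxl4 from -1.09 to 0.50.

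Without the second control, 3 of 5 members still lay above the remaining control on both BC alone arrays and 0 below it, beside 33.2% and 33.8% of all genes. Of these, Lox and Loxl1 differed at least 2-fold, beside 2.19% of all genes, and Loxl2 differed by 0.97. The median of the 5 members was then 0.97, beside 0.01 for all genes. Without the first control it was 2.78, and without the first BC alone array 0.81.

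The substrates of the enzymes were set beside them. Of 11 fibrillar collagen genes, 0 passed limma's adjusted p in either direction, 6 were without overlap and higher in BC alone (16.8% of all genes were), and 0 were without overlap and lower, with a median difference of 0.85. Without the second control that median was 0.58. Col1a1, a type I collagen gene, had 10.84 and 10.91 on the BC alone arrays, against 10.30 and 8.62 on the controls. For Col1a1 both BC alone arrays lay above both controls, with the second control lowest. The other type I gene, Col1a2, had 4.12 and 3.91 on the BC alone arrays, against 3.73 and 4.42 on the controls. Its groups overlapped, and its values were below each array's median of all probe sets.

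Set against the median of these collagens on the same array, Lox was 1.35 and 0.94 log2 above it on the BC alone arrays, against -0.18 and -0.40 on the controls. Loxl1 was 1.10 and 1.40 above it on the BC alone arrays, against 0.54 and 0.43 on the controls. Neither pair of groups overlapped, and the control arrays lay close together on this relative scale. Loxl2 and Loxl3 overlapped, at -0.04 and 0.09 between the group means. Loxl4 had -2.13 and -0.93 on the BC alone arrays, against -0.73 and 0.93 in the control, without overlap. Such a ratio shows unequal differences, not which gene differed, and it was chosen after the values had been seen. The median did not fall on the same collagen on every array. The 11 include dim chains, with means over the 4 arrays of 4.05 for Col1a2, 4.03 for Col11a2 and 3.50 for Col24a1. These dim chains differed by -0.06, 0.35 and -0.49. Among the brighter ones Col5a1 differed by 1.95, Col1a1 by 1.42 and Col3a1 by 0.85. Of the 11 collagens Col5a2 differed most, by 2.83 against 2.77 for Lox, and the median of their differences was 0.85.

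Elastin, the other main substrate, and its scaffold were counted in the same way. Of 12 measured genes, 6 were higher in BC alone without overlap and 0 lower, beside 16.8% and 19.6% of all genes. The median of the 12 was 1.05, or 0.49 without the second control, and 0 passed limma. Eln, elastin itself, had 10.31 and 10.44 on the BC alone arrays, against 9.45 and 7.42 on the controls.

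Genes of propeptide processing and its helpers, for collagens as well as lysyl oxidases, made another list. Of the 8 measured, 4 were higher in BC alone without overlap and 0 lower. Those shares were 16.8% and 19.6% over all genes. The median of the 8 was 1.24, or 0.33 without the second control, and 0 passed limma. Bmp1, the proteinase that cuts the Lox propeptide, had 9.99 and 9.93 on the BC alone arrays, against 9.53 and 7.71 on the controls. Its second control was thus the array that stood apart, as for Loxl3, while the first lay close to BC alone.

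The lysine hydroxylases prepare the residues that lysyl oxidases act on and influence the kind of crosslink formed. All 4 measured genes of that list, Plod1, Plod2, Plod3 and P3h4, were higher in BC alone without overlap. Of all genes 16.8% were, and 0 of the 4 passed limma. Their median was 1.20, or 0.42 without the second control. P3h4, itself not a lysine hydroxylase, had the smallest difference, at 0.60. Plod2, linked to stable crosslinks in fibrosis, had 8.25 and 7.89 on the BC alone arrays, against 7.02 and 5.10 on the controls.

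Copper delivery had a median near that of all genes. Of 7 genes, 2 were higher in BC alone without overlap and 1 was lower, where 16.8% of all genes were higher and 19.6% lower. The median of the 7 was 0.04, or -0.11 without the second control, and 0 passed limma. Atp7a, the pump that loads copper into secreted enzymes, was one of the 2, with 7.70 and 7.17 on the BC alone arrays, against 6.56 and 5.93 on the controls. Of 5 measured transglutaminase and copper amine oxidase genes, which crosslink proteins or oxidise amines by other means, 2 were higher without overlap, 0 were lower and 0 passed limma, with a median of 0.03. Without the second control, 3 of those 5 were higher and 1 was lower without overlap, beside 33.2% and 33.8% of all genes. The median of the 5 was then 0.54. Of 12 TGF-beta and hypoxia genes, whose pathways are known to induce lysyl oxidases, 6 were higher without overlap, 0 were lower and 0 passed limma, with a median of 0.83, or 0.22 without the second control.

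**Figure D4:**
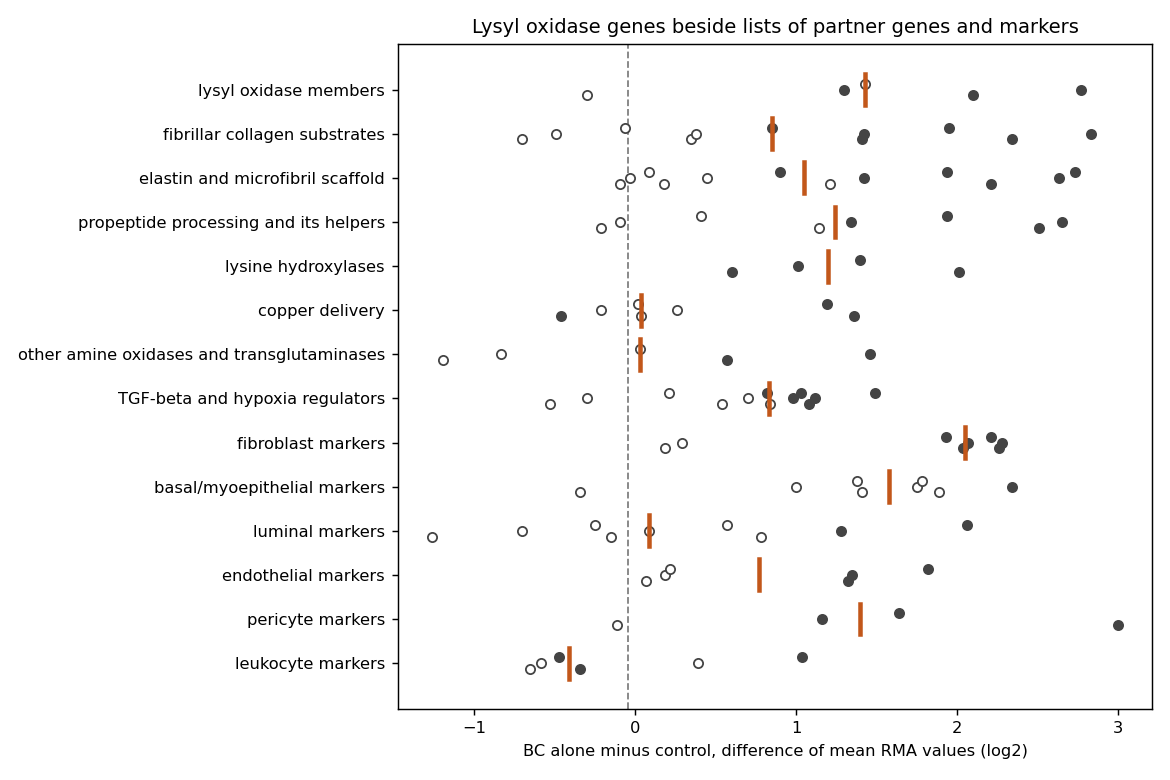
Difference of mean log2 RMA values, BC alone minus control, for the 5 lysyl oxidase genes, the 7 lists of partner genes and the 6 lists of cell type markers. Filled circles are genes whose groups do not overlap, open circles overlap, orange bars are list medians and the dashed line is the median of all genes at -0.04. The fibroblast markers have the highest list median, at 2.05.

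Fibroblast markers differed in the same direction as Lox and Loxl1, and their part in the result was not tested. Of 8 measured markers, 6 were higher in BC alone without overlap and 0 lower, beside 16.8% and 19.6% of all genes. The median of the 8 markers was 2.05, or 1.12 without the second control. Their summed linear level was 2830 and 3422 on the BC alone arrays, against 1385 and 440 on the controls. Over all genes it was 2334507 and 2334528 on the BC alone arrays, against 2282554 and 1214437 on the controls. Dcn, decorin, had 10.84 and 11.16 on the BC alone arrays, against 9.91 and 8.02 on the controls. Pdgfra, a defining fibroblast receptor, had 4.06 and 3.57 on the BC alone arrays, against 3.58 and 3.68 in the control, below each array's median of all probe sets, and no detection calls came with the files. Set against the median of the fibroblast markers on the same array, Lox was 1.55 and 0.76 above it on the BC alone arrays, against 0.42 and 0.51 in the control, without overlap. Loxl1 was 1.30 and 1.22 above it on the BC alone arrays, against 1.14 and 1.34 in the control, with overlap.

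Markers of other cell types were counted too, and their part was likewise not tested. Without overlap and higher in BC alone were 3 of 4 pericyte, 3 of 6 endothelial, 2 of 9 luminal, 1 of 8 basal and 1 of 6 leukocyte markers, and 2 leukocyte markers were lower. Over all genes 16.8% were higher and 19.6% lower without overlap. The median differences of these marker lists were 1.40, 0.77, 0.09, 1.58 and -0.41 in the same order. Without the second control the medians were 1.43, 0.40, -0.17, -0.28 and -0.30. The basal median thus changed sign. Lower in BC alone without overlap were then 6 of 8 basal, 3 of 9 luminal and 4 of 6 leukocyte markers, beside 33.8% of all genes. Higher without overlap were then 4 of 4 pericyte, 3 of 6 endothelial and 7 of 8 fibroblast markers, beside 33.2% of all genes. The luminal, basal and leukocyte counts were 2, 1 and 1. Summed linear levels of the pericyte markers were 1085 and 623 on the BC alone arrays, against 246 and 362 on the controls. Those of the endothelial markers were 718 and 620 on the BC alone arrays, against 449 and 325 on the controls. Luminal markers summed to 2968 and 3271 on the BC alone arrays, against 2999 and 1179 in the control, and leukocyte markers to 214 and 254 in BC alone, with 264 and 180 in the control. The sum over all genes was also lowest on the second control. Ptprc, the pan-leukocyte marker CD45, had 2.91 and 3.27 on the BC alone arrays, against 4.21 and 3.26 in the control, below each array's median.

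The genes most like each member over the 4 arrays were found by the root mean square difference of the values, after each gene's own mean was subtracted, among the 17096 other genes. A likeness over 4 arrays, which all genes share, is a description. Nearest to Lox were Col6a3 and Col6a2, chains of type VI collagen, Ptgs2, an inducible prostaglandin synthase, and Ttyh2, at 0.242 to 0.350 log2. Nearest to Loxl1 were Tnxb, tenascin-X, Col6a2, Mfap5, a microfibril protein, and Cd248, a surface protein of fibroblasts and pericytes, at 0.026 to 0.130. Within the family, Loxl1 was the 8th nearest gene to Lox, at 0.420.

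Loxl3 was nearest to Tpm2, a tropomyosin, Cnn1, a smooth muscle calponin, Ccnd2, a cyclin, and Tenm2, at 0.210 to 0.247. Cnn1 had 8.11 and 6.79 on the BC alone arrays, against 8.15 and 4.76 in the control, and was lowest on the second control, as Loxl3 was. Loxl2 was nearest to Dhx58, Cpxm1, Cacna2d1 and Ikbkg, at 0.106 to 0.140. Loxl4 was nearest to Mmp12, 1700008O03Rik, Hoxa3 and Lyst, at 0.043 to 0.088.

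The scale of the arrays moved the members less than leaving out a control did. After another quantile normalization, median centring and cyclic loess, Lox differed by 2.59, 2.90 and 2.37, and Loxl1 by 1.82, 2.23 and 1.60. Loxl2 differed by 1.37, 1.43 and 1.40 under the same scalings. The groups of these 3 genes did not overlap in any of them.

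**Figure D5:**
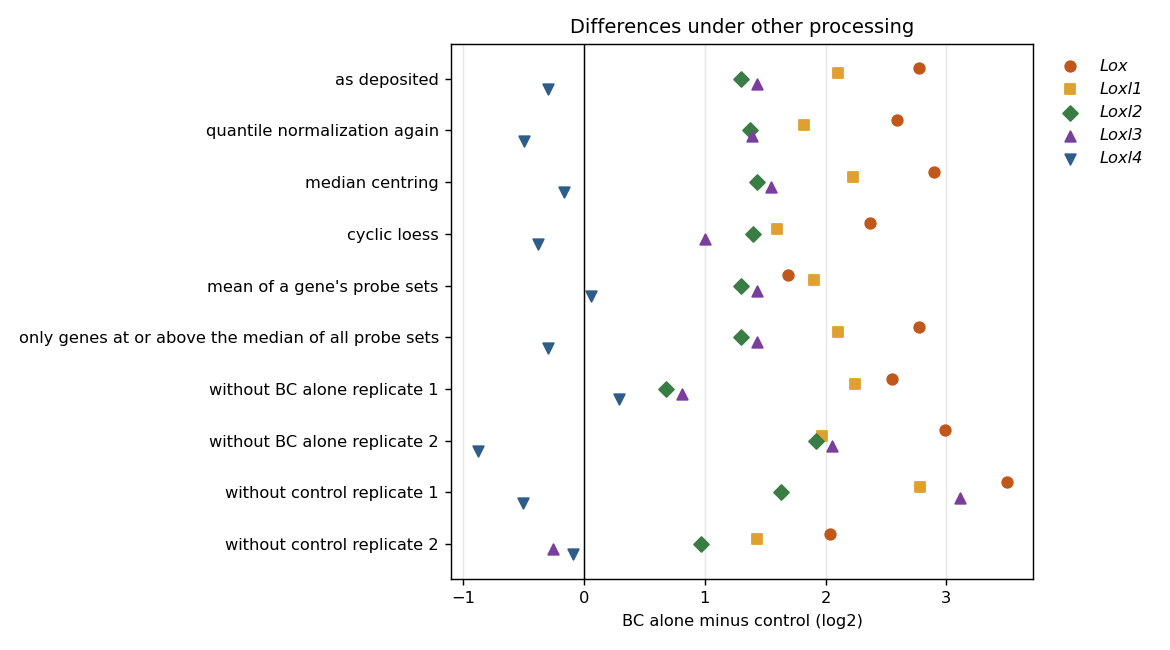
BC alone minus control (log2) for each gene with the values as deposited, under other scalings, probe set choices and filters, and without each array. Lox stays between 1.69 and 3.50 and Loxl1 between 1.43 and 2.78. Loxl3 lies below 0 without the second control, and Loxl4 lies above 0 in 2 of these settings.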

How the data were processed

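The authors deposited log2 expression values per probe set, 1 column per array, with RMA and affy named, without versions, per the submitters' processing notes. RMA corrects background, normalises quantiles and summarises the probes of a set, and it compresses large differences. The sources used here name no genome build and do not say whether all arrays were normalised together. No array held the same values as another.

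The platform annotation, old in part, gave 28898 of 45141 probe sets 1 symbol, 551 several and 15692 none. Only the first kind was used, with the brightest probe set by mean for each gene and no filter on dim ones. BC alone was compared with the control in limma 3.58.1 under R 4.3.3 (lmFit and eBayes, no trend, two-sided, Benjamini-Hochberg over 17097 genes, threshold 0.05), with 2 residual and 3.50 prior degrees of freedom. With 2 arrays a group, an exact permutation test has a smallest p of 0.333. The fit was tested on simulated data with equal noise on all arrays for each gene. That simulation held no array like the second control. Every probe set was also tested by itself, an alternative chosen after seeing the data.

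The members and lists were chosen with earlier results of these data known. Besides the members, the rule allowed the 3 genes of each partner list with the highest mean, some of them named, and named the 4 genes most like each member. P3h4, Col1a2, Col5a2, Col11a2, Col24a1 and the markers Krt14, Dcn, Pdgfra and Ptprc were named after their values were seen. The ratios to list medians were also chosen after the values were seen. Lists counted 64 partner genes, 59 measured, and 44 markers, 41 measured. A planned search for sequence motifs was not run.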

Additional observations from a re-analysis of the deposited data

How the results depend on the processing

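Over 13 alternatives each, Lox ranged from 1.69 to 3.50, Loxl1 from 1.43 to 2.78 and Loxl2 from 0.68 to 1.92. None of these 3 genes changed direction. The intensity trend, a robust variance model, the replicate block, the filter on dim genes and the test of every probe set could not change it. Those settings leave a gene's values and group means as they were. Averaging probe sets could not move Loxl2 either, as it has 1. With all 4 arrays kept, adjusted p of these genes in limma ran up to 0.891. Loxl3 turned to -0.26 without the second control and was 3.11 without the first. Loxl4 turned to 0.06 with the mean of its probe sets and, without single arrays, ranged from -0.88 to 0.29. With an intensity trend in the variance model 97 of 17097 genes passed against 0, and 56 of the 97 were higher in BC alone. Lox was among them at 2.77 (limma's adjusted p = 0.00412). The replicate numbers do not pair the arrays by any label, and the deviations of same-numbered arrays from their group means correlated at -0.02. With the replicate block 108 of 17097 genes passed, 94 of them higher in BC alone, on 1 residual degree of freedom. They included Lox at 2.77 (limma's adjusted p = 0.000152) and Loxl1 at 2.10 (limma's adjusted p = 0.0139). The median of the 5 members ranged from 0.81 to 2.78 without single arrays, lowest without the first BC alone array and highest without the first control. Genes at least 2-fold different without overlap numbered 972, of which 84.3% were higher, against 614 (54.4%) after quantile normalization again, 533 (56.5%) after cyclic loess, 620 with the mean of probe sets, 1243 (92.0%) after median centring, which moved the median of all genes by 0.13, and 732 (51.2%) to 3824 without single arrays. The 3 members without overlap were the same count under all 3 scalings. The RNA came from 50 cells, with 2 arrays a group and no detection calls. Dim values such as those of Loxl2 in the control may be limited by background, which was not tested.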
